A study of Mus musculus with 4 samples.

Results

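The genes of bone morphogenetic protein (BMP) signalling and the Id genes that it switches on were examined for Sox2 peaks in mouse embryonic stem cells. The 8 genes were taken by name, with earlier results of these data known. They were the ligand gene Bmp4, the receptor gene Bmpr1a, the Smad genes Smad1, Smad5 and Smad6, and the targets Id1, Id2 and Id3. A peak was assigned to a gene when its centre lay in the gene body or within 50 kb of it on mm10. By this rule 36 of the 29255 deposited peaks lay at these 8 of 21887 protein-coding genes, and none of the 8 windows overlapped another.

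The data are ChIP-exo peak lists, in which an exonuclease trims the captured DNA back to the crosslinked protein, so that a peak is only 1 to 20 bp wide. All 4 libraries came from the D3 embryonic stem cell line, with 1 library in each group. Endogenous Sox2 was captured with an antibody against Sox2. The other libraries were captured on HaloLink resin through HaloTag, a fused protein that forms a covalent bond with the resin. The label of Halo-Sox2 names no change to the protein, and Halo-Sox2D carries residues 1 to 120 of Sox2. Halo-Sox2M carries changes that its label writes as M47G, F50 and M51G, where F50 stands without a replacing residue. Capture thus differed between endogenous Sox2 and the fusions, and the labels do not say how the fusions were expressed. The Halo-Sox2D list was the longest with 13833 peaks, endogenous Sox2 had 7153, Halo-Sox2 had 6558, and the Halo-Sox2M list was the shortest with 1711. They carry no read numbers or heights, so depth is unknown, and a longer list cannot be told apart from deeper sequencing or a looser threshold. No test between libraries was possible, and the Poisson intervals below cover counting error only. The Wilson intervals treat the genes as if drawn at random, though they were taken by name.

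BMP ligands bring type I and type II receptors together, the type I receptor phosphorylates Smad1, Smad5 or Smad9, and these enter the nucleus with Smad4 to act on target genes. Among the targets are the Id genes, whose proteins lack a DNA-binding region and hold back differentiation factors of the basic helix-loop-helix class. In mouse embryonic stem cells BMP4 together with LIF is known to support self-renewal, in part through Id proteins. Smad6 is an inhibitory Smad that dampens the pathway.

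Halo-Sox2D had peaks at all 8 genes, Halo-Sox2 at 5, endogenous Sox2 at 2 and Halo-Sox2M at 0. The genes with endogenous Sox2 peaks were Bmp4 and Id3, and those with Halo-Sox2 peaks were Bmp4, Smad6, Id1, Id2 and Id3. Over all protein-coding genes, Halo-Sox2D had a peak at 57.7%, Halo-Sox2 at 32.3%, endogenous Sox2 at 27.4% and Halo-Sox2M at 6.37%. Against that background the endogenous Sox2 share, 25% (95% Wilson interval over genes 7.15 to 59.1%), lay close to the share over all genes. The Halo-Sox2 share was 62.5% (30.6 to 86.3%), an interval that includes the background share. The Halo-Sox2D share was 100% (67.6 to 100%), beside 57.7% over all genes. Because the 8 genes were chosen with earlier results of these data known, these intervals cannot show that they differ from other genes. Enrichment was not tested. For Halo-Sox2M, 0 of 8 genes allows a share of up to 37.5% by the limit of 3 counts, or 32.4% by the Wilson interval, and its background share is below both. The counts depended on the window: endogenous Sox2 had peaks at 1 gene within 20 kb (Id3) and at 5 within 100 kb, and Halo-Sox2 at 3 within 20 kb. The share over all genes was not taken for those windows.

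**Figure D1:**
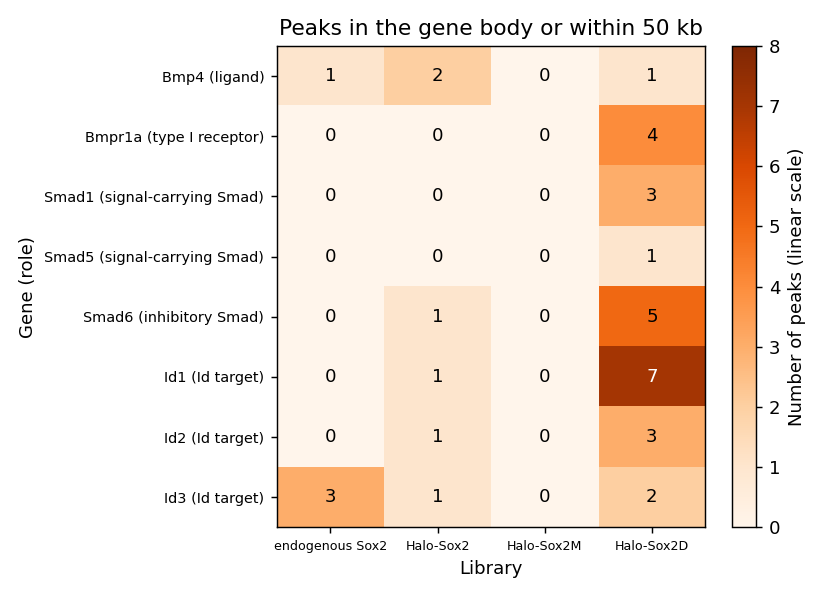
Number of peaks in the body or within 50 kb of each of the 8 genes (rows, with roles) in each of the 4 libraries (columns). The Halo-Sox2D column is filled for every gene, from 1 peak at Bmp4 and Smad5 to 7 at Id1, and the Halo-Sox2M column holds only 0.

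The 8 windows held 26 Halo-Sox2D peaks, 6 Halo-Sox2 peaks and 4 endogenous Sox2 peaks. The median gene of the 8 had 3 Halo-Sox2D peaks (range 1 to 7), 1 Halo-Sox2 peak (0 to 2) and 0 endogenous Sox2 peaks (0 to 3), beside medians of 1, 0 and 0 over all protein-coding genes. The Halo-Sox2D count of Bmp4 and Smad5 was reached by 57.7% of all protein-coding genes, and that of Id3 by 36.4%. That of Smad1 and Id2 was reached by 22.2%, of Bmpr1a by 13.6%, of Smad6 by 8.32% and of Id1 by 2.92%. Because long genes have long windows, the numbers were also taken per 100 kb of window. Halo-Sox2D had 2.42 peaks per 100 kb at the 8 genes (exact Poisson interval 1.58 to 3.55), beside 1.02 over the windows of all protein-coding genes. Of the 26 peaks, 15 lay within 20 kb, where the density was 2.53 (1.41 to 4.17) beside 0.973. Within 100 kb the density was lower, 1.92 (1.35 to 2.66) beside 1.02. Counted by the nearest protein-coding gene, the 8 genes had 14 peaks, or 1.75 peaks per gene (0.957 to 2.94) beside 0.560. The intervals cover counting error only, and peaks of 1 cluster, such as the 4 at Id1, are not independent counts. Nor do the intervals allow for the choice of the 8 genes, made with earlier results of these data known. The Halo-Sox2 density was 0.559 (0.205 to 1.22) beside 0.361, and endogenous Sox2 had 0.372 (0.101 to 0.954) beside 0.363. Within 20 kb endogenous Sox2 had 0.505 (0.104 to 1.48) beside 0.343, and within 100 kb 0.640 (0.331 to 1.12) beside 0.369. Halo-Sox2 had 0.505 and 0.640 in the same windows, beside 0.346 and 0.364. By nearest gene both had 0.5 peaks per gene (0.136 to 1.28), beside 0.245 for endogenous Sox2 and 0.227 for Halo-Sox2. At its density over all genes Halo-Sox2M would have had 0.802 peaks in these windows, so its 0 carries little information.

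Bmp4 (mm10 chromosome 14, 46383525 to 46390669), which encodes the ligand, had 1 endogenous Sox2 peak, 2 Halo-Sox2 peaks and 1 Halo-Sox2D peak. Downstream of the gene, 44.6 kb from its body, the endogenous Sox2 peak (46338934 to 46338947) and a Halo-Sox2 peak (46338952 to 46338964) lay beside each other. Their centres were 17.5 bp apart and 4 bp lay between them, so that they met at the same place without overlapping. No other protein-coding gene was nearer to this place than Bmp4. The Halo-Sox2D peak, at 46385728 to 46385734, was instead inside Bmp4, 4.94 kb past its start. A second Halo-Sox2 peak stood alone 34.6 kb upstream of the gene (46425311 to 46425326).

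Bmpr1a (chromosome 14, 34411061 to 34503336) encodes a type I BMP receptor and had 4 Halo-Sox2D peaks and 0 in each other library. 1 of the 4 lay inside Bmpr1a (34424543 to 34424544), 13.5 kb from its lower end. The others lay at other genes: 1 inside Mmrn2 (34378309 to 34378316), 1 inside Ldb3 (34540910 to 34540918), and a single-base peak at 34363604 with Fam25c as its nearest protein-coding gene. For Bmpr1a the lack of peaks of the other proteins depended on where the window ended. Just outside it, 50.851 to 50.998 kb below the gene, 4 endogenous Sox2 and 2 Halo-Sox2 peaks lay together in a place between 34360059 and 34360214. With 100 kb on either side, Bmpr1a would have 5 endogenous Sox2, 4 Halo-Sox2 and 7 Halo-Sox2D peaks.

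**Figure D2:**
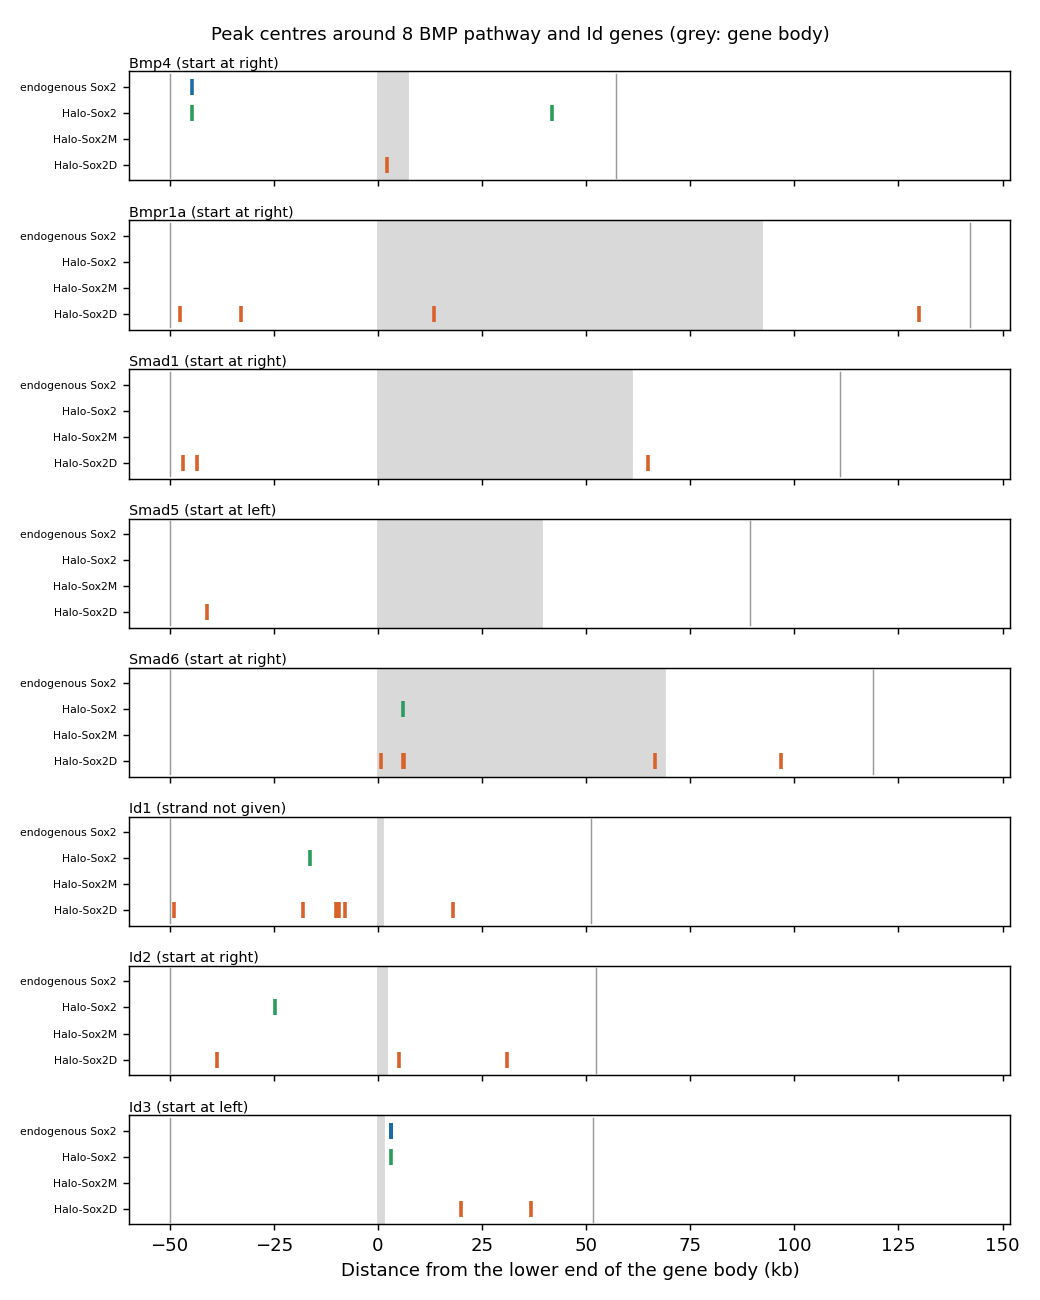
Peak centres (ticks, coloured by library) around each of the 8 genes, in kb from the lower end of the gene body. Gene bodies are grey, thin vertical lines mark the ends of the windows, and the title of each panel says on which side transcription starts; ticks of endogenous Sox2 and Halo-Sox2 coincide at Bmp4 and Id3, and Halo-Sox2 and Halo-Sox2D ticks coincide inside Smad6.

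Smad1 and Smad5 encode the Smads that carry the BMP signal, and they had Halo-Sox2D peaks alone, 3 and 1. At Smad1 (chromosome 8, 79338395 to 79399428) the nearest lay 3.73 kb upstream of the start (79403154 to 79403170), within the non-coding gene Gm51578. Both remaining peaks, at 79291590 to 79291600 and 79294876 to 79294887, lay in Mmaa, more than 40 kb downstream of Smad1. The single peak at Smad5 (chromosome 13, 56703010 to 56742378) lay 40.9 kb upstream (56662082 to 56662099), nearer to Tgfbi, a gene of an extracellular matrix protein, than to Smad5. Thus 1 of these 4 peaks had the Smad gene as its nearest protein-coding gene. The nearest endogenous Sox2 peaks lay 147 kb from Smad1 and 451 kb from Smad5, and the nearest Halo-Sox2 peaks 259 and 121 kb away.

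The second Mmaa peak lay in a promoter window, which allowed the DNA under it to be shown. The RefSeq promoter table (GRCm38.p6, 250 bases before to 50 after a start) held windows of Mmaa and of the non-coding gene Gm4890 that cover it. The peak lay 196 bp before the Gm4890 start and 146 bp before the Mmaa start of that window. The nearest Mmaa start was 80 bp away. The bases below are the plus strand of chr8:79294867-79294896, with the Halo-Sox2D peak in capitals.
Mmaa and Gm4890: cgcggccccGACTCCTGGCCTccgcgcgca
The stretch is rich in G and C. Neither of the Sox core motifs searched on both strands, CATTGT and CTTTGT, occurs in it or in the whole promoter windows of Mmaa and Gm4890. Of all 32851 promoter windows of that length, 12.6 and 18.7% hold these letters. Of the other motifs planned, GGCGCC, searched as a Smad1/5 element, occurs 1 time in the Mmaa window, outside the printed bases. Of all windows 11.9% hold it. Neither window holds the octamer parts TGCAAAT and TGCTAAT or the Smad1/5 letters GGAGCC.

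Smad6 (chromosome 9, 63953076 to 64022085) encodes the inhibitory Smad and had 5 Halo-Sox2D peaks, 1 Halo-Sox2 peak and no endogenous Sox2 peak. Of all protein-coding genes, 8.32% had at least 5 Halo-Sox2D peaks. It was the one gene of the 8 where Halo-Sox2 and Halo-Sox2D peaks shared a place. The Halo-Sox2 peak (63959245 to 63959262) and a Halo-Sox2D peak (63959246 to 63959257) overlapped by 12 bp, with centres 2 bp apart, inside the gene and 6.18 kb from its lower end. A second Halo-Sox2D peak (63959318 to 63959325) followed 60 bp further on. Another pair of Halo-Sox2D peaks lay inside the gene at its opposite ends: one 0.851 kb from the lower end, where transcription of Smad6 stops, and the other 2.53 kb past the start. The last, at 64049997 to 64050002, lay 27.9 kb upstream in the non-coding gene 1110036E04Rik, 170 bp from a start of that gene. For all 6 peaks Smad6 was the nearest protein-coding gene.

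Id1 (chromosome 2, 152736251 to 152737410) had 7 Halo-Sox2D peaks, the most of any of the 8 genes in any library, although its body is only 1.16 kb long. Of all protein-coding genes 2.92% had at least 7. A group of 4 lay 7.95 to 9.96 kb below the gene, with Id1 as the nearest protein-coding gene. Their positions were 152726287 to 152726293, 152726641 to 152726652, 152726932 to 152726940 and 152728296 to 152728307. The first 3 spanned 646 bp between centres and the 4 spanned 2.01 kb. Such a group is uncommon in this list, where 4.12% of peaks had 3 others of the list within 2.5 kb, a distance chosen after the group was seen. The other 3 Halo-Sox2D peaks were nearer to other genes: 1 lay inside H13 and Mcts2, 82 bp from an Mcts2 start. Another lay 18.0 kb below Id1 with H13 nearest, and the last lay inside Cox4i2, a gene of a respiratory chain subunit. The single Halo-Sox2 peak (152719905 to 152719914), 16.3 kb below Id1, lay nearer to H13 as well and shared no place with a Halo-Sox2D peak. The nearest endogenous Sox2 peak lay 83.1 kb from Id1.

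Id2 (chromosome 12, 25093799 to 25096092) had 3 Halo-Sox2D peaks and 1 Halo-Sox2 peak. A Halo-Sox2D peak lay 2.80 kb upstream of its start (25098886 to 25098895) and another 28.7 kb upstream (25124768 to 25124785). The third Halo-Sox2D peak lay inside Kidins220, on the downstream side, and the Halo-Sox2 peak (25069022 to 25069027) lay between Kidins220 and Id2, nearer to Kidins220. The peaks of these libraries at Id2 were all more than 10 kb apart, and the nearest endogenous Sox2 peak was 199 kb away.

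Id3 (chromosome 4, 136143822 to 136145392) was the gene of the 8 with most endogenous Sox2 peaks, 3, and it had 1 Halo-Sox2 peak and 2 Halo-Sox2D peaks. Endogenous Sox2 and Halo-Sox2 met at a place 1.52 to 1.62 kb downstream of the gene, 3.09 to 3.19 kb past its start. The Halo-Sox2 peak was at 136146908 to 136146922, and the endogenous Sox2 peaks were at 136146928 to 136146947, 136146985 to 136146999 and 136147009 to 136147022. The 4 peaks spanned 115 bp without overlapping, and 5 bp separated the Halo-Sox2 peak from the first endogenous one. Of all endogenous Sox2 peaks on the chromosomes, 21.1% had at least 2 others of their list within 100 bp, so a tight row of this kind is common there. Of all protein-coding genes 6.12% had at least 3 endogenous Sox2 peaks. Halo-Sox2D had no peak at this place: its peaks lay 18.3 kb downstream (136163700 to 136163715) and 35.2 kb downstream inside E2f2 (136180608 to 136180615), and E2f2, a cell cycle transcription factor gene, was the nearest protein-coding gene of both.

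The E2f2 peak lay in a RefSeq promoter window (GRCm38.p6), 170 bp before an E2f2 start that falls within the gene. The bases below are the plus strand of chr4:136180562-136180661, with the Halo-Sox2D peak in capitals.
E2f2: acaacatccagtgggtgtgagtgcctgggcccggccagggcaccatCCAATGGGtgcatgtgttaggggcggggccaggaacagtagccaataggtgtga
Neither Sox core motif, CATTGT or CTTTGT, occurs in these bases or in the whole E2f2 window. The octamer parts TGCAAAT and TGCTAAT and the Smad letters GGCGCC and GGAGCC do not occur in that window either. The letters CCAAT, looked for after the sequence was seen, occur 3 times in the whole window on either strand, 2 of them in the printed bases and 1 in the peak. Of all promoter windows, 37.4% hold CCAAT at least once. The Mmaa and Gm4890 windows do not hold it. Windows of 5 of the 8 genes do (Bmpr1a, Smad1, Smad5, Smad6 and Id2), although no peak lay in them. Promoters of the genes described here could not be shown under peaks, because none held one. Windows were found for 7 of the 8 genes (all but Id1), and no peak centre lay in any of them or within 500 bp. The nearest peak to a start was the Halo-Sox2D peak 2.53 kb past that of Smad6. Over all windows of the table, 4.46% held a Halo-Sox2D peak, 0.734% a Halo-Sox2 peak and 0.472% an endogenous Sox2 peak.

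When peaks with centres within 500 bp were joined, the 36 peaks fell into 28 places. Of these, 22 held Halo-Sox2D alone, 3 held Halo-Sox2 alone and 3 held peaks of 2 libraries. The shared places were those of endogenous Sox2 with Halo-Sox2 at Bmp4 and at Id3, and that of Halo-Sox2 with Halo-Sox2D in Smad6. No place held 3 libraries. All 4 endogenous Sox2 peaks at these genes therefore had a Halo-Sox2 centre within 500 bp, beside 32.4% of all endogenous Sox2 peaks on the chromosomes. None of the 4 had a Halo-Sox2D centre so near, beside 36.1%, although Bmp4 and Id3 both had Halo-Sox2D peaks. Over all protein-coding genes 9.38% had endogenous Sox2 and Halo-Sox2D centres within 500 bp. These 4 peaks make only 2 places, so the shares rest on Bmp4 and Id3 alone. Among the 26 Halo-Sox2D peaks, 2 (7.69%) had a Halo-Sox2 centre within 500 bp, beside 11.2% of all Halo-Sox2D peaks on the chromosomes. Most Halo-Sox2D peaks thus had no Halo-Sox2 centre so near, at these genes and over the whole list. Among the 6 Halo-Sox2 peaks, 1 (16.7%) had a Halo-Sox2D centre so near, beside 24.97% of all. An endogenous Sox2 centre was so near for 2 of the 6 (33.3%), beside 28.3%.

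**Figure D3:**
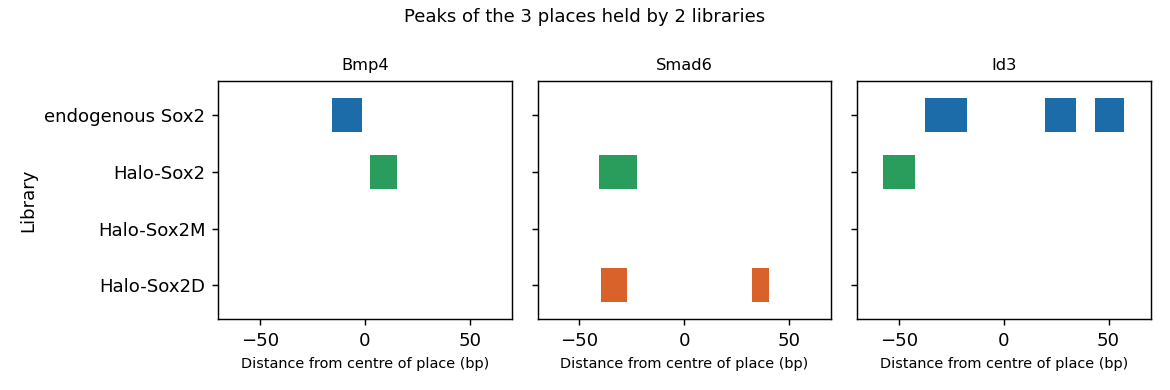
Peaks (bars, to scale) of the 3 places held by 2 libraries at Bmp4, Smad6 and Id3, in bp from the centre of each place. Bars of endogenous Sox2 and Halo-Sox2 lie 4 bp apart at Bmp4 and 5 bp apart at Id3, and those of Halo-Sox2 and Halo-Sox2D overlap by 12 bp in Smad6.

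For endogenous Sox2 against Halo-Sox2, Bmp4 and Id3 were the genes with peaks of both, and each had them in a common place. Over all protein-coding genes 7.84% had endogenous Sox2 and Halo-Sox2 centres within 500 bp, which is 50.8% of the genes that had peaks of both. Smad6, Id1 and Id2 had 1 Halo-Sox2 peak each and no endogenous Sox2 peak. The distances between the nearest centres, 17.5 bp at Bmp4 and 22.5 bp at Id3, were like those elsewhere: where an endogenous Sox2 peak had a Halo-Sox2 centre within 500 bp, the median distance was 32.5 bp (quartiles 10.5 and 72.6 bp).

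For Halo-Sox2 against Halo-Sox2D, 5 genes had peaks of both (Bmp4, Smad6, Id1, Id2 and Id3), and Smad6 alone had them in a common place. Over all genes 8.33% had Halo-Sox2 and Halo-Sox2D centres within 500 bp, or 33.1% of the genes with peaks of both. Bmpr1a, Smad1 and Smad5 had Halo-Sox2D peaks and none of the other libraries, a pattern shown by 22.7% of all protein-coding genes. Halo-Sox2 and Halo-Sox2D without the others was the pattern of Smad6, Id1 and Id2 and of 10.6% of all genes, and endogenous Sox2, Halo-Sox2 and Halo-Sox2D without Halo-Sox2M that of Bmp4 and Id3 and of 11.6%.

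For Halo-Sox2 against Halo-Sox2M, the 5 genes with Halo-Sox2 peaks had 0 Halo-Sox2M peaks and so shared no place, beside 0.818% of all protein-coding genes with centres of both within 500 bp. The Halo-Sox2M peak nearest to any of the 8 lay 117 kb from Smad6, followed by 286 kb for Id1 and 599 kb for Id3. The remaining 5 genes had theirs between 1465 and 2994 kb away. Such distances are usual for this short list: the median over all protein-coding genes was 1028 kb (quartiles 352 and 2309 kb), and 3 of the 8 genes were nearer than that. For Halo-Sox2D the median of the 8 genes was 3.27 kb beside 31.6 kb over all genes (quartiles 0.696 and 144 kb). All but Smad5, 7 of 8, were nearer than that median over all genes. The Halo-Sox2 median was 29.7 kb beside 117 kb (quartiles 30.4 and 317 kb), with 6 of 8 nearer. The endogenous Sox2 median was 77.6 kb beside 144 kb (quartiles 42.4 and 388 kb), with 5 of 8 nearer. Thus the Halo-Sox2D and endogenous Sox2 medians of the 8 lay between the quartiles, and that of Halo-Sox2 just below the lower one.

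**Figure D4:**
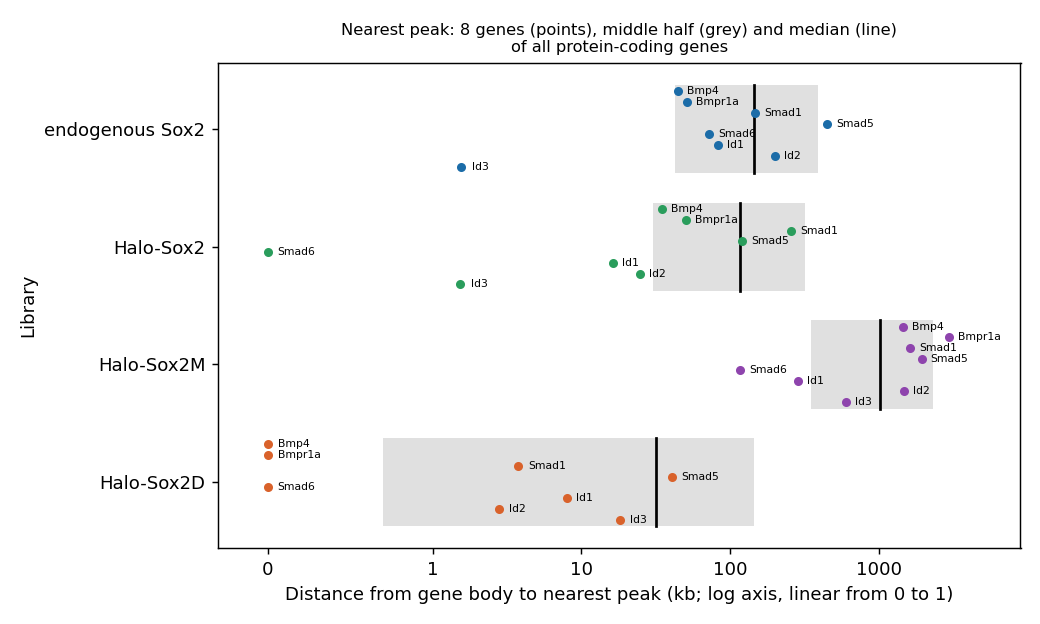
Distance in kb (log axis, linear below 1 kb) from the body of each of the 8 genes (points) to the nearest peak of each library, with the quartiles (grey bar) and median (line) of all protein-coding genes. Bmp4, Bmpr1a and Smad6 hold a Halo-Sox2D peak inside (0 kb), while the nearest Halo-Sox2M peaks lie 117 to 2994 kb away.

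Many of the peaks lay nearer to a neighbouring gene than to the gene they were counted for. Of the 26 Halo-Sox2D peaks, 6 lay inside one of the 8 genes (4 in Smad6 and 1 each in Bmp4 and Bmpr1a), and 14 had one of the 8 as the nearest protein-coding gene. All 4 endogenous Sox2 peaks and 4 of the 6 Halo-Sox2 peaks had one of the 8 nearest. Within 1 kb of either end of any protein-coding gene lay 4 of the 26 Halo-Sox2D peaks (15.4%, beside 21.3% of all Halo-Sox2D peaks on the chromosomes), at Mmaa, Smad6, Mcts2 and Cox4i2. The farthest peak that counted was that of Halo-Sox2D 49.02 kb from Id1, and the nearest that did not was the Halo-Sox2 peak 50.9 kb from Bmpr1a. Between 50 and 100 kb, endogenous Sox2 and Halo-Sox2D met at 83.1 kb above Id1 and 98.2 kb below Bmpr1a, and Halo-Sox2 with 3 Halo-Sox2D peaks at 54.4 to 54.5 kb below Id3.

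The wider pathway was described with a list of 43 genes that includes the 8. Of these, 18 had an endogenous Sox2 peak, 12 a Halo-Sox2 peak, 29 a Halo-Sox2D peak and 0 a Halo-Sox2M peak. Those are 41.9, 27.9, 67.4 and 0% of the list, beside the shares of 27.4, 32.3, 57.7 and 6.37% over all genes. For endogenous Sox2 the 35 genes other than the 8 had the larger share, with 16 (45.7%), and for Halo-Sox2 they had the smaller, with 7 (20%). For Halo-Sox2D the 35 had 21 (60%), near the 57.7% over all genes.

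By role, the target genes had the highest shares with endogenous Sox2 peaks (6 of 9) and Halo-Sox2 peaks (5 of 9), and 8 of 9 had Halo-Sox2D peaks. Over all genes the shares were 27.4, 32.3 and 57.7% in the same order. The role groups hold only 7 to 10 genes, so their order is description only. The targets include Id1, Id2 and Id3, which are among the 8 and all had Halo-Sox2 peaks. They also include Id4, which had 1, 3 and 3 peaks in the same order. At Id4 (chromosome 13, 48261116 to 48266028) peaks of endogenous Sox2, Halo-Sox2 and Halo-Sox2D came together in 1 place of 5 peaks, 8.38 kb below the gene (48252689 to 48252741). That was the only place of 3 libraries in the list. Msx1, a homeobox target, had no peak. The Smads and their regulators had 3, 2 and 8 of 9 genes, led by Smad7, the other inhibitory Smad. Smad7 and Smad6 had 5 Halo-Sox2D peaks each, but Smad7 had 6 endogenous Sox2 peaks and 0 of Halo-Sox2, where Smad6 had 0 and 1. The 6 endogenous Sox2 peaks at Smad7 lay in tight groups, 6.25 to 6.34 kb and 22.1 to 22.3 kb below the gene, so they are not 6 separate places.

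Of the ligand genes 3, 2 and 4 of 10 had peaks (30, 20 and 40%), beside 27.4, 32.3 and 57.7% over all genes. Bmp4 was the only ligand gene with more than 1 peak in all. Receptor genes had 3, 1 and 4 of 7 (42.9, 14.3 and 57.1%). Acvrl1, a type I receptor gene of endothelial cells, had 1, 2 and 3 peaks, and Bmpr1a was next among them in total. Of 8 antagonist genes 3, 2 and 5 had peaks (37.5, 25 and 62.5%). Chrd, which encodes the BMP-binding protein chordin, had 2 in each of the 3 libraries, and Dlx3, a homeobox target, had 1 in each. With Bmp4, Id3 and Id4 these were the 6 genes of the list with peaks of endogenous Sox2, Halo-Sox2 and Halo-Sox2D, but at Acvrl1, Chrd and Dlx3 no place was shared.

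**Figure D5:**
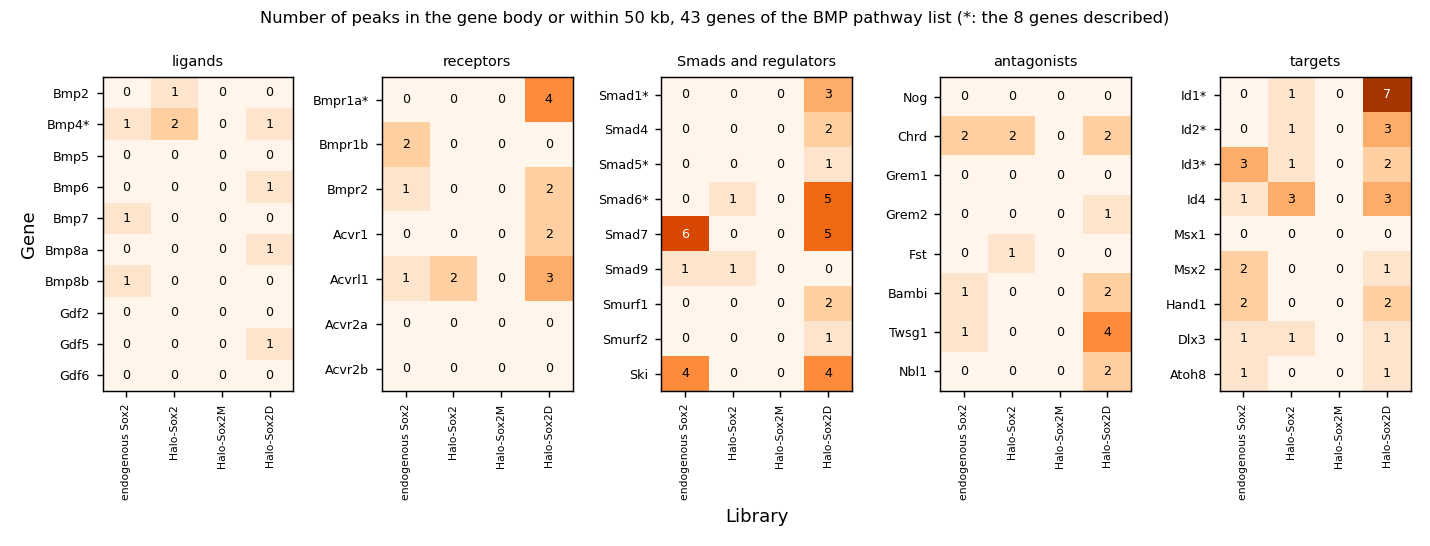
Number of peaks in the body or within 50 kb of the 43 genes of the BMP pathway list, by role, in each library; asterisks mark the 8 genes described. Id1 holds the highest Halo-Sox2D number (7) and Smad7 the highest endogenous Sox2 number (6), while 8 genes, among them Nog and Msx1, have no peak.

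The numbers of peaks in the 4 libraries were compared between list genes by the sum of absolute differences. Dlx3 was most like Bmp4 (sum 1), Smad1 and Twsg1 were most like Bmpr1a (1 each), and Bmp6 and Bmp8a matched Smad5 exactly with 1 Halo-Sox2D peak. Smad6 and Id1 were close to each other (2), each with 1 Halo-Sox2 peak and 5 or 7 Halo-Sox2D peaks. Id2 was most like Smad1 (1), and Id3 was most like Chrd and Hand1 (2 each). With 4 libraries and such low numbers these likenesses are descriptions only.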

How the data were processed

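Peak lists of 4 ChIP-exo libraries were used, 1 per group. The authors deposited chromosome, start and end of each peak with no score, and Bowtie2 and mm10 are named per the submitters' processing notes; neither the peak caller nor its threshold or read filters is given in the sources used here. Starts were read as counted from 0 and are printed counted from 1. Gene bodies were taken from RefSeq on GRCm38.p6, which shares the coordinates of mm10 on the chromosomes used. The table gives no strand, so strand and starts came from the RefSeq promoter table. No genome sequence and no input or resin-only library were used here. With 1 library per group no test was run. Wilson and exact Poisson intervals (95%) were computed with scipy 1.17.1 and numpy 2.4.6 under Python 3.11.15, with tables handled by pandas 2.3.3. Counting was tested on simulated peaks. Genes named were the 8, other list genes with peaks of endogenous Sox2, Halo-Sox2 and Halo-Sox2D or of Halo-Sox2M, the 2 list genes most like each of the 8 (not all printed), and neighbours nearer to a peak. Id4's place, Smad7, Msx1 and Nog were also named after their values were seen, as were the promoter windows shown. The 8 genes and the pathway list were chosen with earlier results of these data known. The alternatives were windows of 20 and 100 kb, the nearest gene, merged peaks, removal of dense bins, and other rules for a place.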

Additional observations from a re-analysis of the deposited data

How the results depend on the processing

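The gene window mattered most, and a wider window can only raise the number of genes with a peak. The share of all protein-coding genes with a peak was taken at 50 kb only. The gene counts at other settings below therefore have no background beside them. With 20 kb on either side, endogenous Sox2 had peaks at 1 of the 8 genes and Halo-Sox2 at 3, Halo-Sox2 had 3 peaks and Halo-Sox2D 15, and of the pathway list 10 genes had endogenous Sox2 peaks and 7 Halo-Sox2 peaks. With 100 kb, endogenous Sox2 reached 5 of the 8 genes with 12 peaks and Halo-Sox2 had 12 peaks, 7 places were shared by libraries, and of the pathway list 21 genes had Halo-Sox2 peaks and 1 a Halo-Sox2M peak (Smad7, 69.1 kb away). When peaks counted for the nearest protein-coding gene alone, Halo-Sox2 had peaks at 3 of the 8 genes and at 7 of the pathway list, and Halo-Sox2D had 14 peaks at the 8 genes. By overlap of at least 1 bp, 1 place was shared, that in Smad6. Halo-Sox2D had peaks at 6 to 8 of the 8 genes, and Halo-Sox2M had 0, under each of the 5 changes of window or peak set. Merging peaks within 50 bp, leaving out bins of 100 kb with 15 or more peaks, and joining centres within 50 or 1000 bp moved none of the summary counts by over 1.5 times. No paired analysis was possible because each group has 1 library. Depth is unknown, so absence from a list is not absence of binding.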
